A study of Mus musculus with 12 samples.

Results

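Collagens are the main fibre and sheet proteins of the extracellular matrix. The 47 genes described here were 40 collagen chains, taken as every gene whose symbol in the deposited mouse annotation had the form Col, a number, a and a number, together with 6 hydroxylase genes (Plod1, Plod2, Plod3, P4ha1, P4ha2 and P4ha3) and the collagen chaperone gene Serpinh1. They were 47 of 21568 genes measured, and each was read from the probe set with its highest mean. Expression was measured on Affymetrix whole-transcript arrays in mouse germinal vesicle oocytes, the stage before meiosis resumes, of a mixed 129/Sv and C57BL/6J background. The double mutant was Ring1-/-Rnf2F/FZp3-cre, the Ring1 mutant Ring1-/-Rnf2F/F, the Rnf2 mutant Ring1+/+Rnf2F/FZp3-cre and the control Ring1+/+Rnf2F/F. All 4 genotypes therefore carried floxed Rnf2, and Cre was driven by the promoter of Zp3, a zona pellucida gene that is transcribed in growing oocytes, so that Rnf2 was deleted in the oocyte while the Ring1 null allele was carried by every cell of the animal. Females of 5 to 10 weeks were primed with pregnant mare serum gonadotropin, and 46 h later oocytes were taken into medium with milrinone, which holds meiotic arrest. Each of the 3 arrays of a genotype held amplified RNA of 1 pool of 50 oocytes from several mice. The labels call the pools biological replicates, but the sources used here do not say whether 1 female gave oocytes to more than 1 pool, so p-values measure the spread between pools.

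Collagen chains are made in the endoplasmic reticulum, where hydroxylases modify their prolines and lysines, wind into a triple helix with the help of chaperones, leave the cell in large carriers and are then trimmed and cross-linked outside it. Fibrillar chains form fibres, type IV chains form the sheets of basement membranes, and fibril-associated and microfibril-forming chains decorate or link these. In the ovary, the basement membrane around each follicle and the stroma hold most of the collagen, while the oocyte lies inside the zona pellucida. Ring1 and Rnf2 encode the ubiquitin ligase subunits of the Polycomb repressive complex PRC1, which marks histone H2A at many silent genes and is known for holding developmental genes off.

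Values are deposited log2 intensities, and a difference of 1 is a 2-fold change. As no detection calls were used, the readings of 1035 olfactory receptor genes, which are taken to be mostly silent in oocytes, set a floor at the 95th percentile of their means, 3.83. Array medians lay between 3.81 and 3.93, and the correlation across genes was 0.9959 to 0.997 between arrays of a genotype and 0.9767 to 0.9816 between the double mutant and the other genotypes. All 13 oocyte markers tested read above the floor in every genotype. The targeted gene Rnf2 read 5.90, 5.68 and 6.01 in the double mutant, 8.43, 8.53 and 8.43 in the Ring1 mutant, 5.60, 5.93 and 6.04 in the Rnf2 mutant and 8.33, 8.44 and 8.23 in the control, so that the Cre-carrying genotypes were set apart as labelled. Ring1 did not separate the genotypes (Ring1 mutant minus control -0.05 ± 0.11 log2, SE, limma, adjusted p = 0.922). The sources used here do not state whether its probes lie in the deleted part, so this gene did not check the labels of the Ring1 null genotypes.

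Of the 47 genes, the enzymes Plod2 and P4ha2 rose at least 20.9-fold and by 2.07-fold in the double mutant, and the others differed by less than 0.3 log2 from the control. Between the double mutant and the control, 3 of the 47 were called higher (Plod2, P4ha2 and Col9a1) and 0 lower at an adjusted p below 0.05 (limma, Benjamini-Hochberg over all 21568 genes), which is 6.38%. Over all genes 32% were called, 14.5% higher and 17.5% lower. Of the 47, 2 were called with more than a 2-fold increase, which 3.07% of all genes passed. The median difference was -0.02 log2 for the 47 genes and -0.04 for all genes. The values of the groups did not overlap for 8 of the 47, 5 of them higher in the double mutant (Plod2, P4ha2, Col9a1, Col12a1 and Col20a1) and 3 lower (Col24a1, Col4a2 and Col23a1), where 18.3% of all genes were separated in the higher and 24.8% in the lower direction. The other 44 genes differed by between -0.23 log2 (Col23a1) and 0.20 (Col12a1), and the outermost bound of their 95% confidence intervals was a 1.36-fold change. Without adjustment, 3 of these 44 had a p below 0.05. In these bulk pools, fewer cells of a type and less RNA per cell cannot be told apart.

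The lysyl hydroxylases, which hydroxylate lysines so that collagen can be glycosylated and cross-linked, did not move together. Plod2, whose product hydroxylates lysines of the telopeptides and sets the kind of cross-link, read 8.31, 8.24 and 8.08 in the double mutant, 3.47, 3.36 and 3.45 in the Ring1 mutant, 3.94, 3.86 and 4.14 in the Rnf2 mutant and 3.82, 3.77 and 3.43 in the control. The double mutant stood far above every other array, while the other genotypes lay near the floor. Plod2 was 4.54 ± 0.11 log2 higher in the double mutant than in the control (SE, n = 3 each, limma, adjusted p = 7.11e-11). As all 3 control arrays and all 3 Ring1 mutant arrays read below the floor, the change against either genotype is given as at least 20.9-fold higher, the double mutant mean set against the floor. It was 4.79 ± 0.11 higher than in the Ring1 mutant (adjusted p = 5.68e-11) and 4.23 ± 0.11 higher than in the Rnf2 mutant (adjusted p = 1.97e-10, limma), whose 3 arrays read above the floor, an 18.8-fold change. All 3 Rnf2 mutant arrays read above all 3 control arrays, but the difference of 0.31 log2 did not pass (limma, adjusted p = 0.585), nor did the Ring1 mutant's -0.25 (adjusted p = 0.444). The interaction, which asks whether the double mutant's difference from the Ring1 mutant exceeds the Rnf2 mutant's difference from the control, was 4.48 ± 0.15 log2 (limma, adjusted p = 7.78e-09).

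Plod1, which hydroxylates lysines of the helix, read 5.83, 5.82 and 6.03 in the double mutant, 6.02, 5.95 and 5.95 in the Ring1 mutant, 5.93, 5.83 and 5.83 in the Rnf2 mutant and 5.91, 5.93 and 5.92 in the control. The double mutant arrays spanned the readings of the other genotypes, and the double mutant differed from the control by -0.03 log2 (limma, adjusted p = 0.808). Plod3, which also carries glycosyltransferase activity, lay at the floor with 4.06, 3.74 and 3.84 in the double mutant and 4.01, 3.89 and 3.77 in the control, a difference of -0.01 (limma, adjusted p = 0.976). Its Ring1 mutant arrays read 3.97, 3.45 and 3.69 and its Rnf2 mutant arrays 3.62, 3.97 and 3.81, so all genotypes overlapped.

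The prolyl 4-hydroxylase alpha subunits, which hydroxylate the prolines that keep the triple helix stable at body temperature, showed the same contrast between 1 gene and its relatives. P4ha2 read 4.90, 5.09 and 4.75 in the double mutant, 3.81, 3.86 and 3.61 in the Ring1 mutant, 3.70, 4.08 and 3.76 in the Rnf2 mutant and 3.85, 3.72 and 4.01 in the control. The 3 double mutant arrays lay above all 9 others, which overlapped each other at the floor. P4ha2 was 1.05 ± 0.12 log2 higher in the double mutant than in the control (SE, n = 3 each, limma, adjusted p = 2.7e-05), a 2.07-fold change. It exceeded the Ring1 mutant by 1.15 (adjusted p = 1.36e-05) and the Rnf2 mutant by 1.07 (adjusted p = 2.7e-05, limma). The interaction was 1.17 ± 0.17 (limma, adjusted p = 4.38e-04), while neither single mutant was called against the control, with -0.10 for the Ring1 mutant (adjusted p = 0.846) and -0.02 for the Rnf2 mutant (adjusted p = 0.996).

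P4ha1, the widely expressed isoform, read 9.28, 9.27 and 9.25 in the double mutant, 9.27, 9.29 and 9.26 in the Ring1 mutant, 9.25, 9.20 and 9.28 in the Rnf2 mutant and 9.43, 9.46 and 9.27 in the control. A pair of control arrays stood above the rest and the third lay among the mutants. The double mutant's difference of -0.12 ± 0.06 log2 was not called (limma, adjusted p = 0.175). It was called at -0.24 with arrays centred on their median (adjusted p = 0.0171) and at -0.18 without control replicate 3 (adjusted p = 0.048, limma). P4ha3 read below the floor throughout, with 2.95, 3.24 and 3.30 in the double mutant, 3.16, 3.40 and 3.34 in the Ring1 mutant, 3.09, 3.09 and 3.30 in the Rnf2 mutant and 3.20, 3.17 and 3.22 in the control (double mutant minus control -0.03, limma, adjusted p = 0.841). Serpinh1, which encodes the procollagen chaperone HSP47, read 3.99, 3.61 and 3.53 in the double mutant, 4.05, 3.86 and 4.17 in the Ring1 mutant, 3.93, 4.10 and 3.87 in the Rnf2 mutant and 3.77, 3.69 and 3.90 in the control. It overlapped between the double mutant and the control, and the difference of -0.08 was not called (limma, adjusted p = 0.674). Its interaction of -0.50 ± 0.17 log2 stayed just outside the threshold (limma, adjusted p = 0.0618).

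**Figure D1:**
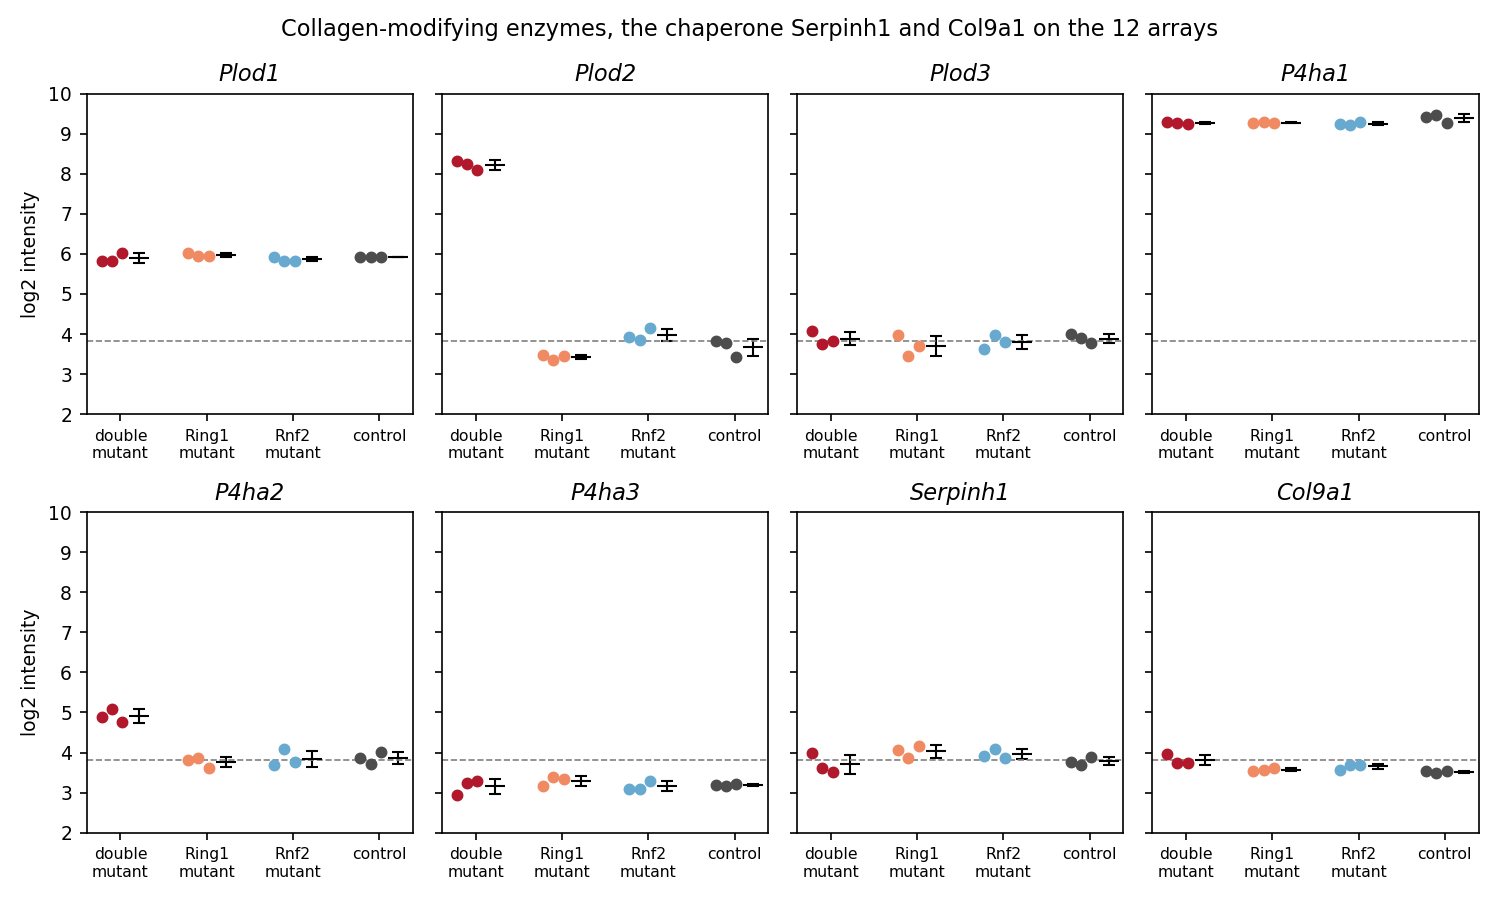
Log2 intensity (vertical axis) of the 7 hydroxylase and chaperone genes and of Col9a1 on each array (points), with the mean and SD of the 3 arrays beside them, for the double mutant, Ring1 mutant, Rnf2 mutant and control from left to right; the dashed line is the floor of 3.83. Plod2 averaged 8.21 in the double mutant and 3.67 in the control, P4ha2 averaged 4.91 in the double mutant and 3.86 in the control, and the double mutant means of the other 5 enzyme and chaperone genes lay within 0.12 of the control means.

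Of the P4ha relatives, P4ha2 rose, while P4ha1 and P4ha3 were not called. The 250 bases before the RefSeq start of each are printed below, with each CpG in capitals. They come from RefSeq on GRCm38.p6, all on the plus strand, at chr11:54100674-54100923 for P4ha2, chr10:59323046-59323295 for P4ha1 and chr7:100285270-100285519 for P4ha3. The stretches hold 21, 24 and 23 CpGs, and a link between CpG count and the rise was not tested. Plod2 has no window in the table used.
P4ha2: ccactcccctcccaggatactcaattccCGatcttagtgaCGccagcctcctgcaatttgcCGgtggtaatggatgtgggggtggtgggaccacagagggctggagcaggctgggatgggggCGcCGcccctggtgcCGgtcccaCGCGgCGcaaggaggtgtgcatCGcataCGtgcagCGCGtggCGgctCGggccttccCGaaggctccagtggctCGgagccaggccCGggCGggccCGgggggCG
P4ha1: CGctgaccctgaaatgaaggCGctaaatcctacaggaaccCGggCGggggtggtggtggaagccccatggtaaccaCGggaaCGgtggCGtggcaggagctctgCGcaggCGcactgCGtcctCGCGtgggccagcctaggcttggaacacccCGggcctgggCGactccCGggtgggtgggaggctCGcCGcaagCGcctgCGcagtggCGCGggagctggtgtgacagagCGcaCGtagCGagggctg
P4ha3: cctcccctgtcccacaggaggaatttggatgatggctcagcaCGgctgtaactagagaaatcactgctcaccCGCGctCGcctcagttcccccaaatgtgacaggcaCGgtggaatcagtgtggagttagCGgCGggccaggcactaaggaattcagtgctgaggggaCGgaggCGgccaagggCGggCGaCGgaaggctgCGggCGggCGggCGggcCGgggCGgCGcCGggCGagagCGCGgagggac

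**Figure D2:**
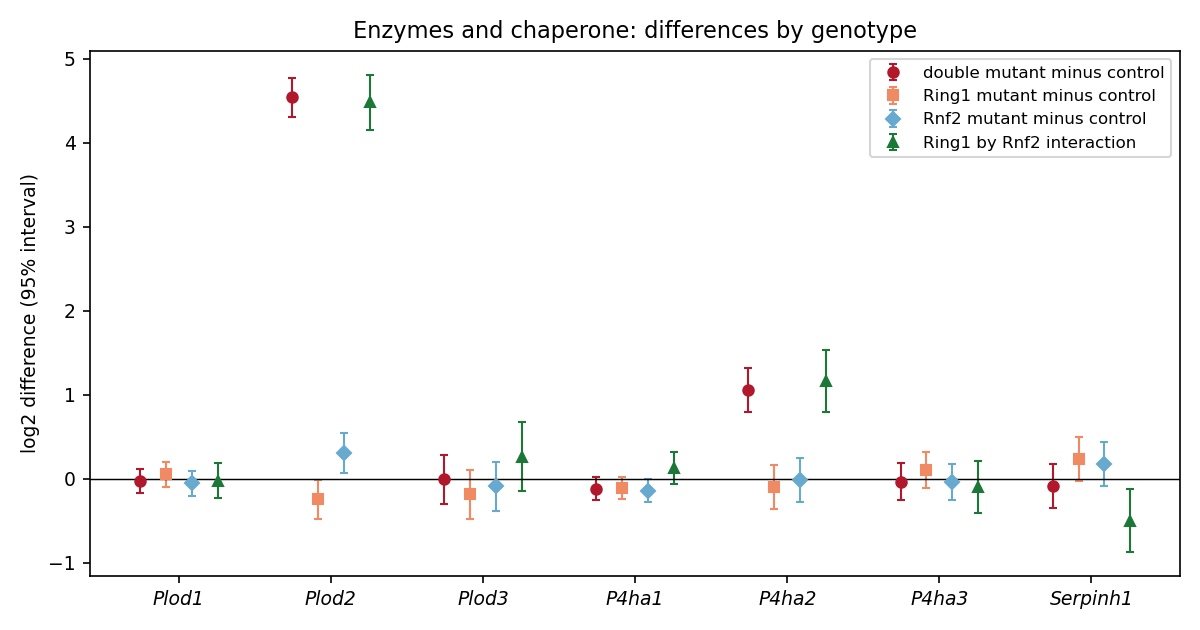
Log2 difference (vertical axis) of the 7 hydroxylase and chaperone genes (horizontal axis) for the double mutant (circles), the Ring1 mutant (squares) and the Rnf2 mutant (diamonds), each against the control, and for the interaction (triangles), with 95% confidence intervals. The double mutant's differences for Plod2 (4.54) and P4ha2 (1.05) stand far above 0, as do their interactions (4.48 and 1.17), and neither single mutant has a called gene.

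Among the 40 collagen chains 1 was called higher and 0 lower in the double mutant against the control (2.5%), beside 32% of all genes. The counts by class given below stand beside the same 32%. The 40 chains had a median difference of -0.02 log2 and a range of -0.23 to 0.29. Their mean reading was 4.25, 4.09 and 4.36 in the double mutant arrays, 4.32, 4.19 and 4.25 in the Ring1 mutant, 4.27, 4.23 and 4.21 in the Rnf2 mutant and 4.25, 4.18 and 4.29 in the control. The means of the genotypes overlapped. The spread of the 4 genotype means of a chain had a median of 0.146 log2, the smallest being 0.05 (Col25a1) and the widest 0.29 (Col9a1). The median SD between arrays of a chain was 0.13 in the double mutant, 0.10 in the Ring1 mutant, 0.08 in the Rnf2 mutant and 0.09 in the control. In all, 28 chains read above the floor in every genotype and 8 below it in every genotype (Col4a5, Col4a6, Col9a1, Col12a1, Col14a1, Col19a1, Col8a1 and Col8a2). Col6a1, Col11a1 and Col15a1 were above it in 1 genotype and Col10a1 in 3, all by differences that were not called. Of all 47 genes, 72.3% had a mean above the floor, against 58.9% of all genes.

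**Figure D3:**
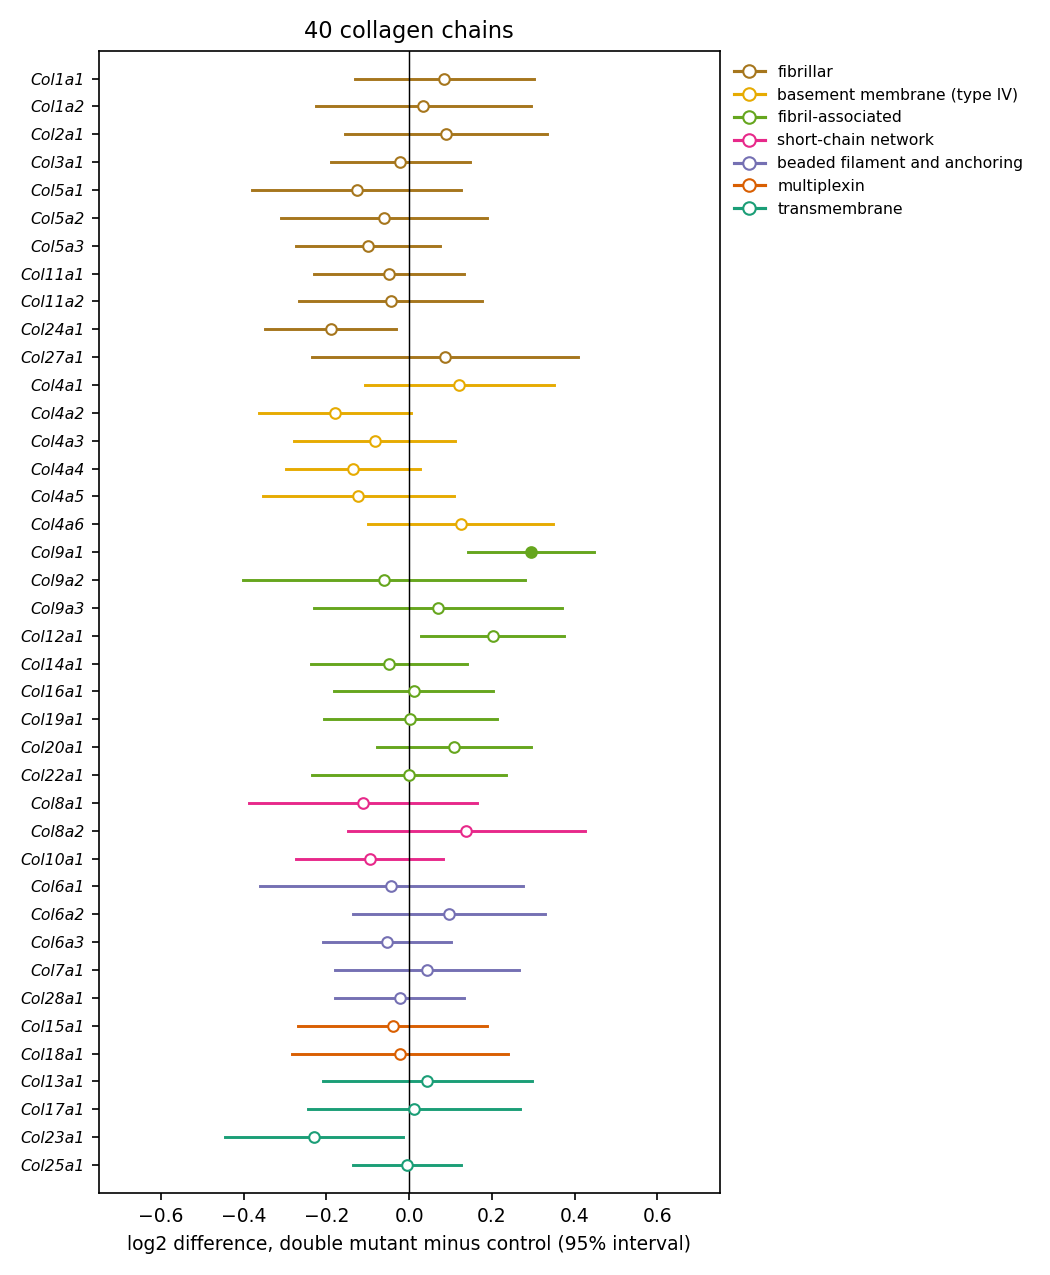
Log2 difference between the double mutant and the control (horizontal axis) for the 40 collagen chains, coloured by class, with 95% confidence intervals; filled points passed an adjusted p below 0.05. All lie between -0.23 and 0.29, and the single filled point is Col9a1.

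Of the 11 fibrillar chains, which build the fibres of connective tissue, 0 were called and the median difference was -0.04. The median turned to 0.07 when arrays were centred on the most abundant 25% of genes, while it was -0.12 with 1 chain called lower (Col24a1) under quantile normalization and -0.17 with 2 called lower (Col24a1 and Col5a3) with arrays centred on their median. Col1a1 and Col1a2 form type I collagen, the main fibre of stroma. Col1a1 averaged 4.94 ± 0.11 in the double mutant, 5.00 ± 0.23 in the Ring1 mutant, 4.79 ± 0.06 in the Rnf2 mutant and 4.86 ± 0.03 in the control (SD, n = 3 each). Col1a2 averaged 5.38 ± 0.26 in the double mutant, 5.33 ± 0.18 in the Ring1 mutant, 5.26 ± 0.09 in the Rnf2 mutant and 5.34 ± 0.02 in the control. For both genes the double mutant arrays overlapped those of every other genotype. The type V chains, which set fibre width, were as close, with Col5a1 at 4.32 in the double mutant and 4.45 in the control, Col5a2 at 6.73 and 6.79, and Col5a3 at 3.97 and 4.07. Col5a2 was the 1 gene of the 47 with a second probe set, which read 3.22 in the double mutant and 3.23 in the control.

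Col24a1, a minor fibrillar chain, had the lowest adjusted p among genes not called. It read 3.98, 4.02 and 4.02 in the double mutant, 4.26, 4.28 and 4.17 in the Ring1 mutant, 4.28, 4.12 and 4.09 in the Rnf2 mutant and 4.17, 4.11 and 4.32 in the control. The double mutant arrays lay below all 9 others. The difference from the control was -0.19 ± 0.07 log2 (limma, adjusted p = 0.0667) and that from the Ring1 mutant -0.23 ± 0.07 (adjusted p = 0.0309). The call against the Ring1 mutant was lost without Ring1 mutant replicate 1 or 2 and without any 1 double mutant array (largest adjusted p = 0.0981, limma), while against the control Col24a1 was called lower at -0.32 with arrays centred on their median (adjusted p = 0.00606), at -0.29 under quantile normalization (adjusted p = 0.0103), with dim genes left out (adjusted p = 0.036) and without control replicate 2 (adjusted p = 0.0482).

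The 6 type IV chains, which form basement membrane sheets, also had 0 calls against the control, with a median of -0.10. The median became 0.01 when arrays were centred on the most abundant genes, while it was -0.17 under quantile normalization and -0.23 with arrays centred on their median, each with 2 chains called lower (Col4a2 and Col4a4). Col4a1 and Col4a2 combine in the common type IV protomer and are transcribed away from each other, with RefSeq starts 21 bases apart on chromosome 8. Col4a2 read 4.26, 4.50 and 4.42 in the double mutant, 4.62, 4.59 and 4.70 in the Ring1 mutant, 4.71, 4.44 and 4.55 in the Rnf2 mutant and 4.66, 4.51 and 4.55 in the control. Its double mutant arrays lay below all Ring1 mutant and control arrays, with a difference of -0.25 ± 0.08 from the Ring1 mutant (limma, adjusted p = 0.0421) and of -0.18 ± 0.08 from the control (adjusted p = 0.133). Col4a1 read 4.33, 4.21 and 4.42 in the double mutant, 4.48, 4.02 and 4.21 in the Ring1 mutant, 4.08, 4.24 and 4.14 in the Rnf2 mutant and 4.26, 4.12 and 4.22 in the control, so it overlapped (0.12 ± 0.10 against the control, limma, adjusted p = 0.437). The call of Col4a2 against the Ring1 mutant was lost without any 1 Ring1 mutant array and without double mutant replicate 1 or 3 (largest adjusted p = 0.159, limma). Against the control Col4a2 was called lower at -0.31 under quantile normalization (adjusted p = 0.0169) and at -0.30 with arrays centred on their median (adjusted p = 0.0157, limma). Neither gene of this pair was called against the control in the values as deposited, and the difference between the pair was not tested.

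Col4a3 and Col4a4, partners in the mature network of some basement membranes, averaged 3.99 and 3.95 in the double mutant and 4.07 and 4.08 in the control. Col4a5 and Col4a6 lie head to head on chromosome X, 1343 bases apart by RefSeq starts. They averaged 3.39 and 3.24 in the double mutant and 3.51 and 3.11 in the control, all below the floor.

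The 9 fibril-associated chains, which sit on fibre surfaces, held the 1 called chain and had a median of 0.01, which became -0.05 under quantile normalization. Col9a1, a chain of the cartilage and vitreous type IX collagen, read 3.96, 3.74 and 3.75 in the double mutant, 3.53, 3.57 and 3.61 in the Ring1 mutant, 3.57, 3.68 and 3.70 in the Rnf2 mutant and 3.54, 3.49 and 3.53 in the control. The double mutant arrays lay above all others, yet every genotype mean was below the floor. The difference was 0.29 ± 0.07 log2 from the control (SE, n = 3 each, limma, adjusted p = 0.00587) and 0.25 from the Ring1 mutant (adjusted p = 0.0173; 0.0712 without double mutant replicate 1 and 0.0594 without Ring1 mutant replicate 1). The difference of 0.16 from the Rnf2 mutant was not called (limma, adjusted p = 0.11), nor was the interaction of 0.11 (adjusted p = 0.512). Centring arrays on their median took the call against the control away (0.17, limma, adjusted p = 0.0739).

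Its helix partners Col9a2 and Col9a3 averaged 4.92 ± 0.29 and 5.21 ± 0.26 in the double mutant and 4.98 ± 0.15 and 5.14 ± 0.07 in the control (SD, n = 3 each), with no call. The stretches before the 2 RefSeq starts of Col9a1 are shown because they contrast with the P4ha genes: at chr1:24177360-24177609 and chr1:24194953-24195202 (GRCm38.p6, plus strand) they hold 0 CpGs and therefore no capitals.
Col9a1 start 1: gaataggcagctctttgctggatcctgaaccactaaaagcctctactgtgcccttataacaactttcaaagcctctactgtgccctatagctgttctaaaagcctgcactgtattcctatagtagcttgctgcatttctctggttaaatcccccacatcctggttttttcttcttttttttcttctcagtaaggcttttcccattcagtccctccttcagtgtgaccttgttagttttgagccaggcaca
Col9a1 start 2: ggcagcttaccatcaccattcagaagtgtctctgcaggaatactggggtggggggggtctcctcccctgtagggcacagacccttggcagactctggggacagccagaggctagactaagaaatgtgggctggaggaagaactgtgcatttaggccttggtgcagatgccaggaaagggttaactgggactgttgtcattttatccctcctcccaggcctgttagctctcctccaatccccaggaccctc

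Col12a1, another fibril-associated chain, lay below the floor with 2.96, 3.06 and 3.21 in the double mutant and 2.90, 2.87 and 2.86 in the control. The groups did not overlap, and the difference of 0.20 ± 0.08 was not called (limma, adjusted p = 0.0727; 0.26 with adjusted p = 0.0369 without double mutant replicate 1). Of the remaining classes, the 3 short-chain, 5 beaded filament and anchoring, 2 multiplexin and 4 transmembrane chains had 0 calls in the double mutant against the control. Their medians of -0.10, -0.02, -0.03 and 0.00 turned to 0.02, 0.09, 0.08 and 0.12 when arrays were centred on the most abundant genes, and to -0.22, -0.15, -0.16 and -0.12 when centred on their median. Under quantile normalization 1 beaded filament chain (Col6a3) and 1 transmembrane chain (Col23a1) were called lower. The type VI chains Col6a1, Col6a2 and Col6a3, which together make beaded microfibrils, averaged 3.63, 4.23 and 4.88 in the double mutant and 3.68, 4.13 and 4.93 in the control. Col28a1 averaged 4.98 in the double mutant and 5.01 in the control, and the transmembrane chain Col25a1 averaged 5.30 in both. The transmembrane chain Col23a1 read 4.29, 4.36 and 4.54 in the double mutant and 4.71, 4.62 and 4.55 in the control, without overlap and without a call (-0.23, limma, adjusted p = 0.102). It was called lower at -0.35 with arrays centred on their median (adjusted p = 0.00989) and under quantile normalization (adjusted p = 0.0136, limma).

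The annotation lists another 4 collagen chains under older names, so that the symbol rule left them out: Col6a4 (1110001D15Rik), Col6a5 (EG665033), Col6a6 (E330026B02Rik) and Col26a1 (Emid2). They are described apart, and were taken up after their values had been seen. Col6a4, Col6a5 and Col6a6, type VI chains that can stand in for Col6a3 in the microfibril, are neighbours on chromosome 9, and all 3 were lower in the double mutant than in the control. Col6a6 read 6.60, 7.01 and 6.97 in the double mutant, 7.95, 7.94 and 8.13 in the Ring1 mutant, 8.16, 8.25 and 8.08 in the Rnf2 mutant and 8.32, 8.25 and 8.12 in the control. The double mutant arrays lay more than 0.9 log2 below every other array, and the other genotypes overlapped each other. Col6a6 differed from the control by -1.37 ± 0.11 log2 (SE, n = 3 each, limma, adjusted p = 9.92e-07), so it was 2.58-fold lower in the double mutant. The differences from the Ring1 mutant and the Rnf2 mutant were -1.15 (adjusted p = 4.75e-06) and -1.30 (adjusted p = 1.66e-06, limma), and the interaction was -1.09 ± 0.15 (adjusted p = 3e-04). Neither single mutant was called, with -0.22 (adjusted p = 0.504) for the Ring1 mutant and -0.06 (adjusted p = 0.971) for the Rnf2 mutant. A second probe set of Col6a6 averaged 5.31 in the double mutant and 5.72 in the control, a smaller difference of -0.41 ± 0.12 (limma, adjusted p = 0.0289 over all probe sets).

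Col6a5 read 5.19, 5.05 and 5.11 in the double mutant, 5.45, 5.27 and 5.22 in the Ring1 mutant, 5.82, 5.67 and 5.48 in the Rnf2 mutant and 5.50, 5.57 and 5.51 in the control. The double mutant lay below every other array and differed from the control by -0.41 ± 0.09 log2 (limma, adjusted p = 0.00337), and its second probe set gave -0.48 ± 0.10 (adjusted p = 0.00394 over all probe sets). It was also lower than the Rnf2 mutant (-0.54, adjusted p = 0.000517), while the difference from the Ring1 mutant was not called (-0.20, adjusted p = 0.112, limma). That difference was called at -0.30 with the mean of all probe sets (limma, adjusted p = 0.00612). It was also called with arrays centred on their median (-0.32, adjusted p = 0.0106) and under quantile normalization (-0.35, adjusted p = 0.0108, limma). The second probe set averaged 5.01 in the double mutant and 5.41 in the Ring1 mutant. Col6a4 read 5.85, 5.98 and 6.14 in the double mutant, 6.36, 6.27 and 6.24 in the Ring1 mutant, 6.57, 6.75 and 6.31 in the Rnf2 mutant and 6.29, 6.36 and 6.37 in the control. It too lay below every other array, by -0.35 ± 0.10 against the control (limma, adjusted p = 0.0197). That call was lost without control replicate 2 (adjusted p = 0.056) or 3 (0.0561) and without double mutant replicate 1 (0.0821) or 2 (0.0506), and when arrays were centred on the most abundant genes (adjusted p = 0.106). Against the Ring1 mutant Col6a4 differed by -0.30 (limma, adjusted p = 0.0413), a call lost on leaving out 5 of the 6 arrays compared, each in turn. Col26a1, a chain known for expression in testis and ovary, averaged 5.04 in both groups and was not called (limma, adjusted p = 0.996). Counted with these 4, 44 chains on the array held 1 called higher and 3 called lower in the double mutant against the control (9.09%). Over all genes 32% were called, 14.5% higher and 17.5% lower.

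The 250 bases before the starts of the 3 neighbours that were lower together are shown next, from RefSeq on GRCm38.p6, minus strand, printed in the direction of transcription with each CpG in capitals. They lie at chr9:105828086-105828335, chr9:105960644-105960893 and chr9:106096692-106096941 and hold 10, 8 and 5 CpGs, fewer than the P4ha stretches. In windows of 300 bases, which run on 50 past the start, they held 14, 10 and 5. The 35 such windows of chains kept by the symbol rule had a median of 12, from 0 to 37. The uncalled type VI chains Col6a1 and Col6a3 held 3 each, and Col6a2, also uncalled, held 16 and 6 at its starts. A link between CpG count and the lower readings was not tested.
Col6a6: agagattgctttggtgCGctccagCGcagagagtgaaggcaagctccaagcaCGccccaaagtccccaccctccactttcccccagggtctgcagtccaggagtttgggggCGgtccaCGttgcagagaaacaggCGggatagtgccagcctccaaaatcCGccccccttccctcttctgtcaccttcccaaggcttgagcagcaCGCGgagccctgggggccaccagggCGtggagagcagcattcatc
Col6a5: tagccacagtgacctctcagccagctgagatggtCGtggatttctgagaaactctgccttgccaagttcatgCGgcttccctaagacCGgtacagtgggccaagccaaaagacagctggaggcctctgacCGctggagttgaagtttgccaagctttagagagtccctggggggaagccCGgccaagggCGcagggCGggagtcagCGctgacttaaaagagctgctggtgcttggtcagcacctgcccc
Col6a4: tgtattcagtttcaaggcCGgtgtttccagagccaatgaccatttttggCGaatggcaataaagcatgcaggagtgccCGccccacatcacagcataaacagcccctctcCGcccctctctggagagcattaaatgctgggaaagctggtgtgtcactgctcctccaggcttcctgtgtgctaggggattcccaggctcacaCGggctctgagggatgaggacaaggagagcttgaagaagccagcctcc

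**Figure D4:**
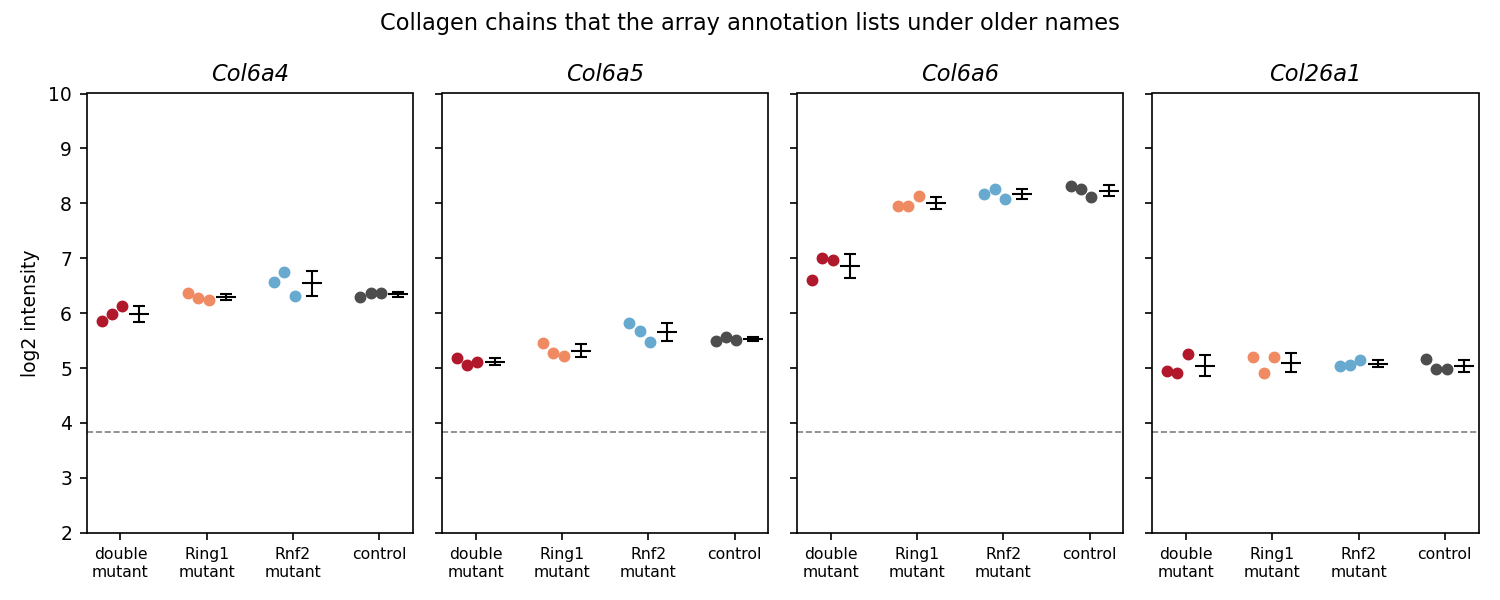
Log2 intensity (vertical axis) on each array (points), with mean and SD of 3 arrays, for the 4 collagen chains listed under older names, with the double mutant, Ring1 mutant, Rnf2 mutant and control from left to right; the dashed line is the floor of 3.83. Col6a6 averaged 6.86 in the double mutant and 8.23 in the control, Col6a5 and Col6a4 were lower by smaller amounts, and Col26a1 was level.

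Neither single mutant differed from the control in any of the 47 genes by the test used. In the Ring1 mutant 0 of 47 were called (limma), against 0.774% of all genes, and the differences ran from -0.25 (Plod2) to 0.24 (Serpinh1), with a smallest adjusted p of 0.444 and 2 genes at an unadjusted p below 0.05. In the Rnf2 mutant 0 were called, against 0.139% of all genes, and the differences ran from -0.23 (Col23a1) to 0.31 (Plod2), with a smallest adjusted p of 0.585 and 3 genes at an unadjusted p below 0.05. The outermost 95% bounds were 1.42-fold (Serpinh1) in the Ring1 mutant and 1.46-fold (Plod2) in the Rnf2 mutant, so larger changes lay outside the intervals. Between the double mutant and the Ring1 mutant, 3 of the 47 were called higher (Plod2, P4ha2, Col9a1) and 2 lower (Col4a2, Col24a1), against 31.7% of all genes. Between the double mutant and the Rnf2 mutant 2 were called higher (Plod2 and P4ha2), against 30.3% of all genes. The same genes made up the 2 called interactions, against 19.1% of all genes. These comparisons share arrays, so their values stand side by side and none is a repeat of another.

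The genes that act on or bind collagens were followed with lists of 96 tested genes in 8 roles. In the double mutant 39 of them (40.625%) were called against the control, 19 higher and 20 lower, beside 32% of all genes, with a median of -0.03. In the single mutants 0 were called against the control, by limma. The split moved to 14 higher and 35 lower with arrays centred on their median, and to 27 higher and 14 lower with arrays centred on the most abundant 25% of genes. Of all genes, 44.9% and 32.8% were called under these scalings. As deposited, the share called was 50% for folding and hydroxylation, 66.7% for secretion, 30% for propeptide cleavage and 28.6% for cross-linking. It was 28.6% for breakdown, 44.4% for receptors, 37.5% for basement membrane and 41.2% for fibril-binding matrix, beside the 32% of all genes.

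Of 14 folding and hydroxylation genes, 2 rose and 5 fell in the double mutant, with a median of -0.10. P3h2, a prolyl 3-hydroxylase, read 3.92, 4.59 and 4.24 in the double mutant and 2.75, 3.07 and 2.72 in the control, where it lay below the floor. It was 1.41 ± 0.16 log2 higher (limma, adjusted p = 2.32e-05), with a double mutant mean of 4.25 beside the floor of 3.83. The size of this difference thus rests in part on readings below the floor. P4hb, the disulfide isomerase that is the beta subunit of the prolyl 4-hydroxylases, read 9.77, 9.72 and 9.83 in the double mutant and 10.17, 10.19 and 10.15 in the control, and fell by 0.40 on the log2 scale (limma, adjusted p = 0.000123). In the same arrays the transcript of the alpha subunit P4ha2 was thus higher and that of the beta subunit lower. P4ha1, the alpha subunit gene with the highest reading, averaged 9.27 in the double mutant and 9.39 in the control and was not called. The prolyl isomerase Fkbp14 fell by 0.66 (limma, adjusted p = 0.00079) and the chaperone Hspa5 by 0.28 (adjusted p = 0.00182). Crtap, the partner of prolyl 3-hydroxylase, was called at 0.45 ± 0.13 (limma, adjusted p = 0.0182; lost without any 1 of 4 arrays, at most 0.0777 without double mutant replicate 2), and the hydroxylase P3h1 at -0.22 ± 0.07 (adjusted p = 0.0382; lost without any 1 of 5, at most 0.152 without double mutant replicate 1).

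Of 9 secretion genes, which build or load the carriers for procollagen, 2 rose and 4 fell, with a median of 0.04. The coat subunits Sec23a and Sec13 fell by 0.51 and 0.36 on the log2 scale (limma, adjusted p = 2.24e-05 and 0.000232). Sec24d, a cargo-binding coat subunit, rose by 0.55 (limma, adjusted p = 0.000363), with 6.31, 6.41 and 6.31 in the double mutant and 5.89, 5.81 and 5.67 in the control. The loading factor Mia2 fell by 0.31 (limma, adjusted p = 0.00252). With the mean of all its probe sets, Mia2 differed by -0.16 and was not called (limma, adjusted p = 0.0652). The GTPase Sar1b fell by 0.27 (limma, adjusted p = 0.00651), a call that Sar1b lost when arrays were centred on the most abundant genes (adjusted p = 0.0728). Creb3l2, a membrane-bound factor that drives secretory genes in cartilage, was 0.49 higher (limma, adjusted p = 0.00898). Its means of 3.62 in the double mutant and 3.12 in the control both lay below the floor.

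Of 10 propeptide cleavage genes, 3 were called higher and 0 lower, with a median of 0.01, and all 3 lost the call when arrays were centred on their median. The procollagen protease Tll1 was 0.28 higher (limma, adjusted p = 0.00964; 0.117 so centred). Adamts3, which trims amino-terminal propeptides, was at 0.28 ± 0.08 (limma, adjusted p = 0.0214; lost without any 1 of 3 arrays, at most 0.08 without double mutant replicate 1) and the enhancer Pcolce2 at 0.22 ± 0.07 (adjusted p = 0.0403; lost without any 1 of 4, at most 0.139 without control replicate 1). Of 7 cross-linking genes 1 rose and 1 fell, with a median of 0.02. Pxdn, the peroxidase that makes sulfilimine bonds in type IV collagen, read 6.66, 6.59 and 6.80 in the double mutant, 7.21, 7.29 and 7.34 in the Ring1 mutant, 7.17, 7.23 and 8.20 in the Rnf2 mutant and 8.20, 8.23 and 8.19 in the control. All double mutant arrays were lowest, and the single mutants lay between, apart from 1 Rnf2 mutant array at the control's level. Pxdn fell by 1.52 on the log2 scale in the double mutant (SE 0.20, limma, adjusted p = 9.35e-05), against -0.92 in the Ring1 mutant (adjusted p = 0.0738) and -0.67 in the Rnf2 mutant (adjusted p = 0.459). The lysyl oxidase Loxl1 was 0.56 higher in the double mutant (limma, adjusted p = 0.00621).

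Of 14 collagen breakdown genes 4 were called higher and 0 lower, with a median of 0.01. When arrays were centred on their median the split was 3 higher and 4 lower. Timp2, an inhibitor of matrix metalloproteinases, read 5.71, 6.45 and 5.91 in the double mutant and 3.29, 3.27 and 3.47 in the control, where it lay below the floor, and rose by 2.68 ± 0.15 log2 (limma, adjusted p = 5.74e-08). The membrane-type protease Mmp16 was 0.44 higher (limma, adjusted p = 0.00126). Fap and the gelatinase Mmp9 were called at 0.40 ± 0.12 and 0.39 ± 0.14 (limma, adjusted p = 0.0185 and 0.0434), calls lost without any 1 of 4 arrays for Fap (at most 0.0775 without double mutant replicate 1) and of 5 for Mmp9 (at most 0.175 without double mutant replicate 2). Of 9 collagen receptor genes tested, 0 were called higher and 4 lower, with a median of -0.22. The receptor kinase Ddr1 read 5.93, 5.80 and 5.59 in the double mutant and 6.55, 6.43 and 6.54 in the control, and fell by 0.73 on the log2 scale (limma, adjusted p = 2.24e-05). The adhesion receptor Adgrg1 fell by 0.29 (limma, adjusted p = 0.00194). Ddr2, the other collagen-binding receptor kinase, was called at -0.44 ± 0.12 (limma, adjusted p = 0.0145; 0.0587 without double mutant replicate 3 and also lost without control replicate 2, and 0.0641 when arrays were centred on the most abundant genes). Lair1 was called at -0.22 ± 0.08 (adjusted p = 0.0475; lost without any 1 of 4 arrays, at most 0.19 without control replicate 1).

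**Figure D5:**
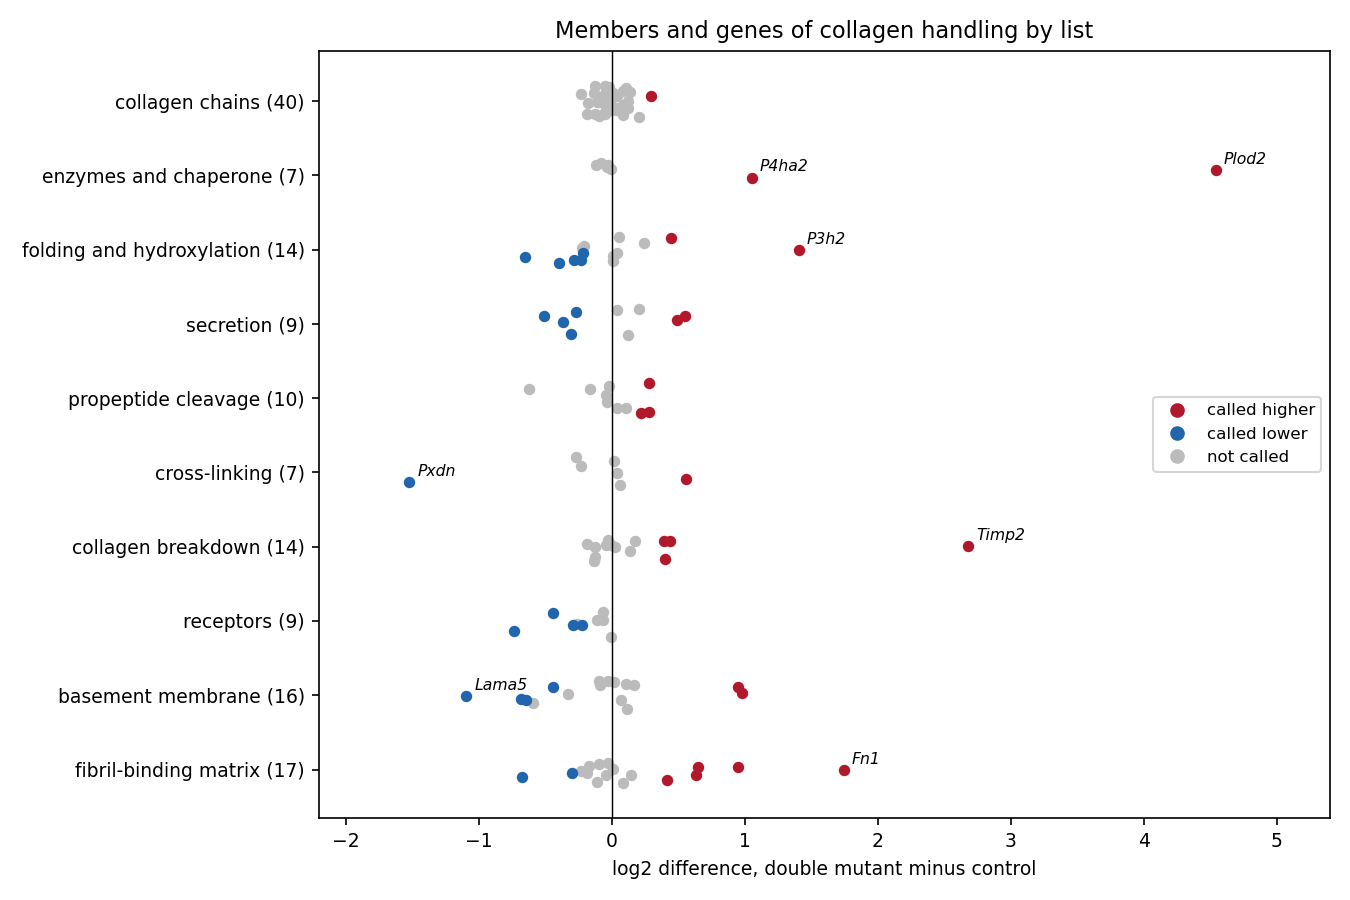
Log2 difference, double mutant minus control (horizontal axis), for the 40 chains, the 7 enzyme and chaperone genes and the 96 genes of the 8 other lists (rows, with the number of genes in each); red points were called higher, blue points lower and grey points not called. In the 8 other lists, called genes lie on both sides in the folding, secretion, cross-linking, basement membrane and fibril-binding lists, above 0 for propeptide cleavage and breakdown, and below 0 for receptors. With arrays centred on their median, propeptide cleavage had 0 called higher and 1 lower, and breakdown 3 higher and 4 lower.

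Of 16 other basement membrane genes 2 rose and 4 fell, with a median of -0.06. The laminin subunits moved apart. Lamc1 read 7.78, 7.75 and 7.60 in the double mutant and 6.78, 6.79 and 6.62 in the control (0.98 ± 0.08 higher, limma, adjusted p = 2.24e-06), and Lama5 read 5.98, 5.93 and 6.03 in the double mutant and 7.05, 7.09 and 7.08 in the control (-1.10 ± 0.07, adjusted p = 1.71e-07). Lama2 and Lama4 fell by 0.68 and 0.64 on the log2 scale (limma, adjusted p = 1.44e-05 and 0.000228), while the linker Nid2 rose by 0.95 (adjusted p = 1.95e-05) from a control level below the floor. Of 17 fibril-binding matrix genes 5 rose and 2 fell, with a median of -0.03. Fn1, which encodes fibronectin, read 5.21, 5.23 and 5.54 in the double mutant and 3.50, 3.61 and 3.64 in the control, below the floor, and rose by 1.74 ± 0.09 log2 (limma, adjusted p = 2.6e-08). Fbn2, a fibrillin, rose by 0.95 (adjusted p = 9.95e-05) and the cartilage protein Matn1 by 0.41 (adjusted p = 0.00224, limma). The small proteoglycans Lum and Dcn were higher by 0.65 and 0.63 (limma, adjusted p = 0.000812 and 0.00546). Lum averaged 3.10 in the double mutant and 2.45 in the control, both below the floor. Dcn averaged 3.91 in the double mutant, near the floor, and 3.28 in the control, below it. The proteoglycan Bgn fell by 0.67 on the log2 scale (limma, adjusted p = 0.000255).

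Markers of cells that surround the oocyte were read beside these lists. The log2 of the summed intensity of 12 stroma, theca and smooth muscle markers was 7.72 to 7.75 in the double mutant, 8.19 to 8.26 in the Ring1 mutant, 8.23 to 8.33 in the Rnf2 mutant and 8.24 to 8.35 in the control. The mean log2 of the same markers overlapped between the double mutant (3.46 to 3.55) and the control (3.47 to 3.63). Of these 12, 2 were called higher (Dcn and Lum, which are also in the fibril-binding list) and 3 lower in the double mutant, among them Myh11 at 6.76 in the double mutant and 7.74 in the control, the 1 marker of the list with a mean above the floor over all arrays. The stromal receptors Pdgfra and Pdgfrb averaged 3.22 and 3.37 in the double mutant and 3.18 and 3.18 in the control, below the floor. For 14 granulosa and cumulus markers the summed level was 9.68 to 10.08 in the double mutant, 9.62 to 9.90 in the Ring1 mutant, 10.01 to 10.36 in the Rnf2 mutant and 9.72 to 10.12 in the control, with 2 called higher and 2 lower in the double mutant and 9 above the floor there. For 6 endothelial markers the summed level was 8.56 to 8.63 in the double mutant and 8.76 in the control, with 1 called higher and 1 lower. Their mean log2 was 4.64 to 4.71 in the double mutant and 4.57 to 4.66 in the control. For 5 blood markers the summed level was 8.23 to 8.30 in the double mutant and 8.28 to 8.36 in the control, with 1 called higher and 0 lower. The summed level of the 13 oocyte markers was 14.61 to 14.63 in the double mutant and 14.66 to 14.72 in the control. Of these markers 1 was called higher (Nlrp5 at 0.22 log2) and 4 lower (Figla at -0.89, Kit at -0.51, Mos at -0.51 and Oosp1 at -0.19). The other 8 were not called, and the median difference of the 13 was -0.03. The calls of Nlrp5 and Oosp1 were lost in 2 and 6 of 17 alternatives. In the double mutant against the control, 41.7% of the stroma, 28.6% of the granulosa and 33.3% of the endothelial markers were called. For the blood and oocyte markers it was 20% and 38.5%, beside 32% of all genes. The part of any of these cells in the collagen results was not tested.

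RefSeq windows of 300 bases, from 250 before to 50 after the start, were found for 38 of the 47 genes, as 41 windows. A window was called CpG-rich with an observed over expected CpG ratio of at least 0.6 and a GC content of at least 50%. This held for 11 of the 35 windows of collagen chains (31.429%) and for 5 of the 6 windows of enzymes and chaperone (83.333%), beside 48.909% of the windows of all genes tested and 33.469% of all windows in the table. The letters TATAAA, on either strand, stood in 7 of the 41 windows (17.073%), beside 11.477% for genes tested and 13.616% for all windows. The windows of the 3 lower type VI neighbours were not CpG-rich and held no TATAAA.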

How the data were processed

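Gene expression of 12 arrays, 3 for each of 4 genotypes, was taken from the series' value table, which the authors deposited as 1 log2 intensity per probe set and array. The affy package and R 2.10.0 are listed in the submitters' processing notes; the sources used here do not state the background correction, summarization or genome build. Arrays were assigned to genotypes from the labels, and no 2 arrays were identical.

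Of 34760 probe sets, 23336 named 1 gene in the deposited annotation, 1276 several, 10117 none and 31 were unlisted. The names were updated through RefSeq by gene number (20090), accession (158), symbol (892) or older symbol (648), and 1548 kept their name. Each of the 21568 genes was read from its probe set with the highest mean (1048 genes had several). Differences were fitted with limma 3.58.1 in R 4.3.3 (lmFit with 1 mean per genotype, eBayes), with Benjamini-Hochberg adjustment over all genes and a threshold of 0.05, and 6 comparisons were made. The fit was tested on simulated data. The number of arrays limits the precision. Promoter windows and their build come from RefSeq (GRCm38.p6), and protein sequences were not used here.

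The 47 genes and all lists were chosen with earlier results of these data known. Named were called genes, the 8 with the highest mean, helix and head-to-head partners, the enzymes, genes that cross the floor, those next to the threshold, and up to 6 called genes per list by adjusted p. The called list genes Pdia3 and Thbs2 fall outside that rule. For 1 gene within it, values are not reported here. The 4 chains under older names were named after their values were seen. Deviations of same-numbered arrays from their genotype means had r from -0.1591 to 0.2046 over 18 pairs, above 0.1 in 4. Between arrays of other numbers r ran from -0.149 to 0.1462 over 36 pairs, above 0.1 in 1. These values do not settle whether the numbers pair the pools. Alternatives were other scalings, probe set rules, filters and fits, a replicate block, and leaving out each array.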

Additional observations from a re-analysis of the deposited data

Results flagged for a closer look

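The interaction, the double mutant minus the Ring1 mutant, less the Rnf2 mutant minus the control, in log2, was called in 2 of the 47 members and in 22 of the 96 partner genes tested (22.917%), beside 19.1% of all genes (limma, adjusted p below 0.05). For the enzymes it was 4.48 for Plod2 and 1.17 for P4ha2. For the chains under older names it was -1.09 for Col6a6 and -0.50 for Col6a4 (adjusted p = 3e-04 and 0.0307, limma), and the call of Col6a4 was lost in 12 of 22 alternatives. Of the 21 of these partner genes that the naming rule covers, those with a positive interaction were Timp2 (2.81), Fn1 (1.89), P3h2 (1.31), Fbn2 (1.15), Lamc1 (0.89), Mmp16 (0.74), Nid2 (0.71), Sec24d (0.67), Matn1 (0.63), Mmp9 (0.61) and Lum (0.60). Those with a negative one were Ddr2 (-1.14), Lama5 (-0.97), Fkbp14 (-0.64), Lama2 (-0.62), Bgn (-0.53), Sec23a (-0.40), P4hb (-0.36), Hspa5 (-0.33), Sec13 (-0.33) and Mia2 (-0.28). The control means of Plod2, Timp2, Fn1, P3h2, Nid2 and Lum lay below the floor, so the sizes of their interactions rest in part on readings there.

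Ddr2 read 4.90, 4.78 and 4.66 in the double mutant, 5.37, 5.08 and 5.29 in the Ring1 mutant, 6.09, 5.96 and 5.61 in the Rnf2 mutant and 5.09, 5.31 and 5.25 in the control. It was thus lowest in the double mutant and highest in the Rnf2 mutant. Pxdn, by contrast, had an interaction of 0.07 ± 0.29 that was not called (limma, adjusted p = 0.904), with the means of both single mutants between the double mutant and the control. Its Rnf2 mutant arrays read 7.17, 7.23 and 8.20, so this estimate rests in part on replicate 3 of that genotype.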

How the results depend on the processing

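The calls of Plod2, P4ha2 and Col6a6 in the double mutant against the control held in every alternative run, and the single mutants had 0 called members in each. Counts of called members moved with scaling. Quantile normalization gave 8 for the double mutant against the control (3 higher, 5 lower), 11 against the Ring1 mutant, 7 against the Rnf2 mutant and 6 interactions. Of all genes 33.5%, 33.4%, 31.1% and 20.1% were called in the same comparisons under that scaling. Centring on array medians gave 8 (2 higher, 6 lower), 12, 8 and 6, beside 44.9%, 46%, 42.4% and 25.3% of all genes. Centring on the most abundant 25% of genes gave 5 against the Rnf2 mutant, beside 30.8% of all genes. Against the Ring1 mutant the count was 3 with every probe set tested by itself, 3 with only the groups of the comparison, 3 with the replicate block, and 2 with a variance trend and robust fit or a test beyond a 1.2-fold change. Leaving out each array gave 3 to 4, 3 to 5 (3 without Ring1 mutant replicate 1 and without double mutant replicate 3), 2 to 3 and 2 to 3 calls in these comparisons. The partner lists gave 16 calls beyond 1.2-fold and 31 to 37 without 1 array, of 39. The block changed no count of called members other than the one above by more than 1.5 times. With it, Col24a1, Col4a2 and Col6a4 were not called against the Ring1 mutant (limma, adjusted p = 0.0508, 0.0624 and 0.0576).

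The median difference of all genes between the double mutant and the control was -0.04 log2 as deposited, -0.16 with arrays centred on their median and 0.07 when centred on the most abundant genes, with 3121 higher and 3785 lower, 2249 and 7436, and 4755 and 2325 genes called. Differences of collagen chains whose range over these scalings crosses 0 therefore have no settled direction. Of the 44 members not called, 36 were called in 0 alternatives, and 8 in some. The test beyond 1.2-fold also ended the calls of Col9a1, Col6a5 (adjusted p = 0.359, limma) and Col6a4. Col9a1 was not tested when dim genes were left out.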
